A study of Drosophila melanogaster with 4 samples.

Results

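Peaks of the transcription factor Distal-less (Dll) were examined at extradenticle (exd, FBgn0000611) and homothorax (hth, FBgn0001235), 2 of 13968 protein-coding genes. A peak was given to a gene when its summit had its nearest protein-coding transcription start site (TSS) at that gene, or lay in the gene body or the 2 kb upstream. The data are ChIP-seq of Dll fused to enhanced GFP, precipitated with an antibody against GFP from transgenic whole Drosophila melanogaster embryos aged 0 to 24 h, in 4 biological replicates that form 1 group. There was no second genotype, treatment or stage, and the sources used here do not say whether untagged Dll was also present. Chromatin was sonicated to 200 to 800 bp, and a whole embryo pools every tissue over the whole of embryogenesis, so that binding in few cells and weak binding in many cannot be told apart. By this rule exd held 1 and hth 0 of the 5203 summits in the series-level list that the submitters named conservative.

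Both proteins are TALE homeodomain proteins, Exd being the fly member of the PBC (Pbx) family and Hth of the MEIS family. Hth binds Exd and carries it into the nucleus, and the pair joins Hox proteins on DNA and sharpens their choice of sites. In the leg, Hth and nuclear Exd mark the proximal segments and Dll the distal ones, and each side represses the other, whereas in the antenna Dll and Hth are expressed together and specify antennal identity.

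The genes differ in size. On dm6, exd lay on the plus strand at chrX:15992468-15996509, 4.04 kb with 4 annotated transcripts and 3 start sites, and hth lay on the minus strand at chr3R:10507561-10639568, 132 kb with 5 transcripts and 2 start sites. hth was 32.7 times as long as exd and was 1 of the 44 longest protein-coding genes (0.315%). Its outer start site serves only the transcript hth-RE, and the other 4 transcripts begin 25292 bp further in.

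The stretches below are those the results turn on, read 5′ to 3′ on the strand of the gene from the RefSeq release 6 genome, which has the dm6 coordinates. The first is the 200 bp before the first exd start site (chrX:15992268-15992467, plus strand), which holds the stretch that the peaks of all 4 replicates shared. The others surround the 3 strongest hth summits of the longest series-level list: at the internal start site (chr3R:10614373-10614523, minus strand), and in the introns 44127 bp (chr3R:10595366-10595516, minus strand) and 103577 bp (chr3R:10535916-10536066, minus strand) from the outer start site. Capitals mark matches to 1 of 7 motifs, searched on both strands. The word TGACAG is bound by Hth, the word TGATNNAT by Exd together with a Hox protein, and TAATTA is the common core of homeodomain sites. Words of promoter and insulator factors were TATCGATA for the factor DREF, the word CGATAT for the insulator protein BEAF-32, the word GAGAGAG for the protein called GAGA factor and GGTCACAC for the promoter factor M1BP. TATCGATA and CGATAT overlap where TATCGATAT occurs.
exd upstream: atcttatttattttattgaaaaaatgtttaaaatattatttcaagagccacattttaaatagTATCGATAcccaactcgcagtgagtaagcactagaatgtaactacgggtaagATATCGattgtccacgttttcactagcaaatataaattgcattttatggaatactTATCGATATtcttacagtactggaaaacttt
hth 25120: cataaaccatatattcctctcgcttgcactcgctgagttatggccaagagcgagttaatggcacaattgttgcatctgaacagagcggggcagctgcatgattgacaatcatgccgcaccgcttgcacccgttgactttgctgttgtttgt
hth 44127: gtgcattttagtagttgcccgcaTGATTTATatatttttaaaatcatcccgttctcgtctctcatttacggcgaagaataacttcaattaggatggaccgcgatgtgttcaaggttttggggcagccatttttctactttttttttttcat
hth 103577: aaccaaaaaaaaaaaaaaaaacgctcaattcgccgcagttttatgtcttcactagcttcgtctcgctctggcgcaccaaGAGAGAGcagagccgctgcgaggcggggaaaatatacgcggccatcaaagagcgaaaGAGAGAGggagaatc

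In the 301 bp centred on the conservative exd summit, TATCGATA occurred once, starting 31 bp before the first start site, and CGATAT occurred 3 times, 1 of them overlapping it. A further TATCGATA began just outside that window. Of all 5203 conservative windows of this length, 20.5% held TATCGATA and 29.2% CGATAT, against 7.98% and 17.6% of 19276 promoters. None of TGACAG, TGATNNAT and TAATTA occurred in the exd window, and these were in 10.3%, 15.7% and 18.8% of the conservative windows and in 11.8%, 17.8% and 18.9% of the promoters. The window at the internal hth start held no match to any of the 7 motifs. The intron window at 44127 bp held 1 TGATTTAT, a match to TGATNNAT. So did that of a further hth summit, 6157 bp upstream of the outer start site. The intron window at 103577 bp held 2 GAGAGAG, a word found in 10.2% of conservative windows and 7.64% of promoters. GGTCACAC, in 8.26% and 6.72%, occurred in no window of either gene. A match describes these letters only, and the hth windows were chosen after the data were seen, since hth had no conservative summit.

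Each replicate has a ranked list of candidate peaks with no threshold and a shorter thresholded list. The ranked lists held 39011 to 44390 candidates on the nuclear chromosomes, or 3.04 ± 0.201 per 10 kb (SD, n = 4), and the thresholded lists held 2523 to 3610. The threshold is a global irreproducible discovery rate (IDR) of 0.01, which is the authors' estimate of the share of peaks at that level that do not recur between the inputs compared, and the sources used here do not name the inputs compared. Peak height was ranked within a list, as the percent from the top, so that a low value is a strong peak. The lists hold no read counts, and the depth of each sample is therefore unknown.

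A peak at the exd promoter passed the threshold in every replicate. Its summit lay 59 bp upstream of the first start site in replicate 1, 35 bp upstream in replicate 2, 32 bp downstream in replicate 3 and 127 bp upstream in replicate 4. The 4 summits thus fell within 159 bp of each other, and all 4 peaks covered the same 154 bp (chrX:15992313-15992466). The global IDR was 0.00192, 0.00121, 0.000837 and 0.00221 in replicates 1 to 4. Within the thresholded lists the peak was of middling height, at 63.3%, 51.7%, 55.3% and 62.2% from the top (mean 58.1 ± 5.56, SD, n = 4). A thresholded summit in all 4 lists was found at 21.9% of all protein-coding genes and at 28.1% of the 5451 genes of 2 to 10 kb.

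**Figure D1:**
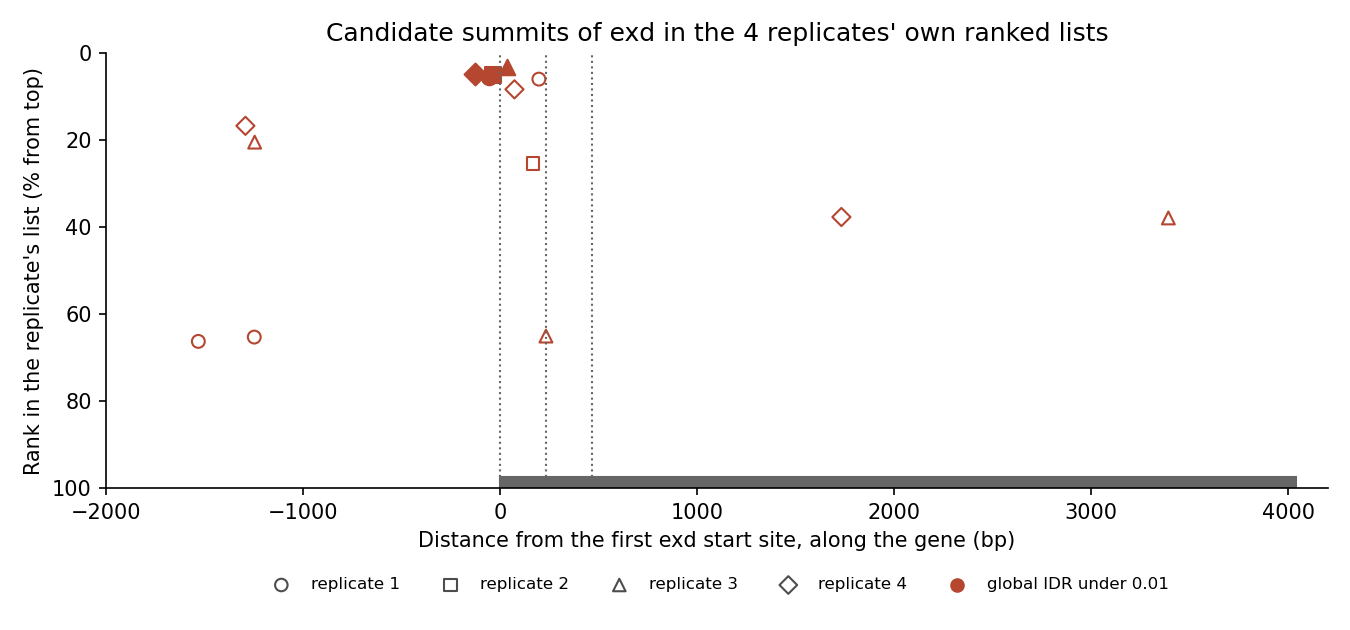
Candidate summits of exd in the 4 replicates' own ranked lists, by distance from the first start site (bp) and rank from the top of the list (%). Filled symbols have a global IDR under 0.01, dotted lines are the 3 start sites and the grey bar is the gene body. The 4 filled summits lie at the first start site, from 127 bp upstream to 32 bp downstream of it.

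exd had 4, 2, 4 and 4 candidates in replicates 1 to 4, of which 2 in each replicate lay in its promoter, taken as 500 bp upstream to 100 bp downstream of a start site. The weaker promoter summit of each replicate lay 255, 201, 200 and 199 bp downstream of the stronger one, near the second start site in replicates 1 to 3. No gap between neighbouring summits in any of the 4 lists was under 199 bp, so this spacing sits at or near the smallest the lists hold. The weaker summits ranked at 6.0%, 25.3%, 65.0% and 8.35% from the top, and none passed the threshold. In replicates 1, 3 and 4 a further candidate lay 1249, 1247 and 1294 bp upstream of the first start site, inside the body of the neighbouring eIF5. Replicate 1 had another 1533 bp upstream. Replicates 3 and 4 each had a candidate in an exd exon, 3392 and 1732 bp downstream of the first start site, at 37.9% and 37.7% from the top.

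At hth the thresholded lists held no peak in replicates 1, 3 and 4 and 2 peaks in replicate 2. The first of these lay 178 bp upstream of the internal start site, at 69.0% from the top of the thresholded list with a global IDR of 0.00471. The second lay in an intron 103575 bp from the outer start site, at 85.2% with an IDR of 0.00649. Both therefore stood in the lower part of that list. The smallest IDR of any hth candidate was 0.0683 in replicate 1, 0.0496 in replicate 3 and 0.0639 in replicate 4. Of the 87 genes of at least 100 kb, 47.1% had a thresholded summit in 1 or more own lists.

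The ranked lists held many hth candidates, 81, 87, 76 and 76 in replicates 1 to 4. Introns held 65.5 ± 6.45 of these, exons 4.25 ± 1.71 and promoters 1.5 ± 0.577, and 8.75 ± 1.26 lay beyond the gene (SD, n = 4). Thus 4 of 14 exd candidates passed the threshold over the 4 lists, against 2 of 320 hth candidates, while 5.68% to 9.25% of all candidates passed. The median candidate of exd ranked at 23.1% ± 11.1 from the top and that of hth at 51.5% ± 2.86 (SD, n = 4 replicates), the middle of the list.

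**Figure D2:**
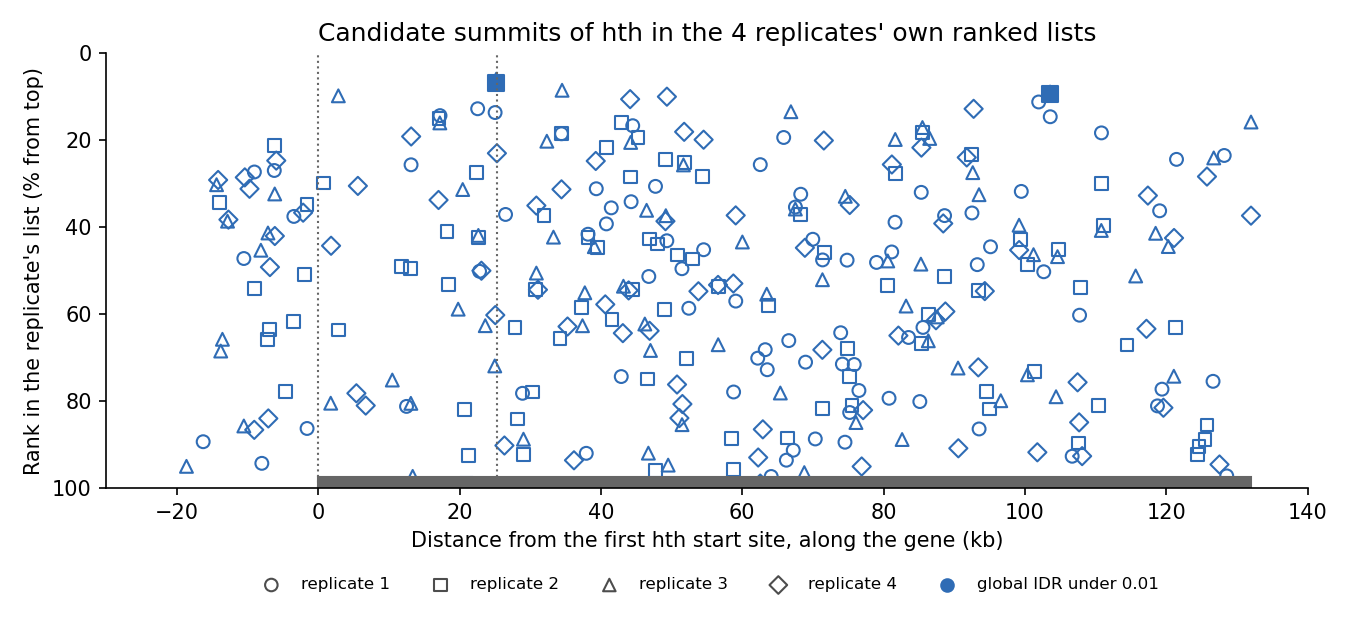
Candidate summits of hth in the 4 replicates' own ranked lists, by distance from the outer start site along the gene (kb) and rank from the top of the list (%). Filled symbols have a global IDR under 0.01, dotted lines are the outer and the internal start site and the grey bar is the gene body. Candidates are spread over the whole gene and most of the range of ranks, and the 2 filled summits, both from replicate 2, are at the internal start site and in a distant intron.

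Within hth the candidates were spread along the gene. Counted in bins of 10 kb from the outer start site, the mean over replicates was lowest among the complete bins in the first, with 2 ± 1.63 candidates, and highest from 40 to 50 kb, with 8.75 ± 2.22 (SD, n = 4). The lowest and highest replicate of the first bin were 0 and 4, and those of the bin from 40 to 50 kb were 7 and 12. These bins were picked for their means, so their separation is no test of an uneven spread. The bin from 60 to 70 kb ran from 3 to 13. The outer start site had no candidate in its promoter in any replicate. The internal start site had one in every replicate, and the strongest lay 272, 178, 118 and 18 bp upstream of it in replicates 1 to 4. These ranked at 13.7%, 6.84%, 6.02% and 23.0% from the top (mean 12.4 ± 7.88, SD, n = 4).

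Which hth summit was strongest differed between replicates. In replicates 2 and 3 it was that at the internal start site, in replicate 1 an intron summit 101952 bp from the outer start site, and in replicate 4 an intron summit 49333 bp from it. The distant intron summit that passed in replicate 2 ranked at 9.49% from the top there and at 8.97% in replicate 3, and a candidate within 100 bp ranked at 14.6% in replicate 1. Replicate 4 had no candidate within 100 bp of it.

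The strongest candidate of exd was stronger than that of hth in every replicate. It ranked at 5.48%, 4.95%, 3.25% and 4.797% from the top for exd (mean 4.62 ± 0.959) and at 11.2%, 6.84%, 6.02% and 10.03% for hth (mean 8.54 ± 2.503, SD, n = 4). The ranges did not overlap. The difference, exd minus hth, was −3.92 ± 1.88 percentage points and had the same sign in 4 of 4 replicates, which gave p = 0.125 in an exact two-sided paired sign-flip permutation test. That is the smallest p that 4 replicates allow, so the design could not reach 0.05.

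Per length the numbers of candidates of the genes overlapped between replicates. Within the body and 2 kb upstream, exd had 6.62, 3.31, 6.62 and 6.62 candidates per 10 kb (mean 5.79 ± 1.66) and hth 5.60, 5.97, 5.0 and 4.93 (mean 5.37 ± 0.499, SD, n = 4). Only in replicate 2 was exd the lower. The difference of 0.420 ± 2.07 per 10 kb lay within the spread between replicates (p = 0.75, exact two-sided paired sign-flip permutation test), and it was −1.07 ± 2.74 when the gene bodies alone were counted. It was 2.07 ± 1.92 in the upper 50% of each ranked list by signal and 1.62 ± 0.0746 in the thresholded lists (SD, n = 4), each with p = 0.125 in the same exact permutation test, the smallest that 4 replicates allow. On exd, 1 candidate amounts to a large step in this measure, because the stretch is only 6042 bp long.

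**Figure D3:**
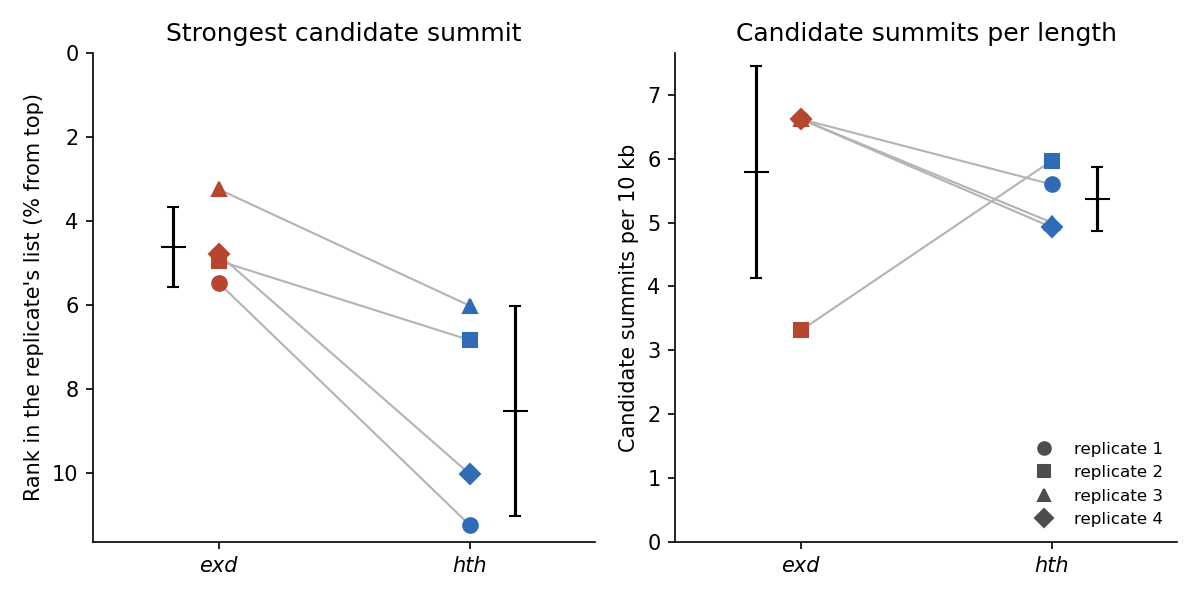
Rank of the strongest candidate (left, % from the top, strongest at the top) and candidates per 10 kb (right) for exd and hth. Symbols are replicates joined by grey lines and black bars are the mean ± SD (n = 4). On the left every exd value lies above every hth value, and on the right the genes overlap.

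Against genes of its own size, hth had many candidates. Its mean of 72 candidates in the body and 2 kb upstream was 5.37 per 10 kb, against a median of 1.55 per 10 kb over the 87 genes of at least 100 kb, and 6 of those 87 were denser. Its strongest candidate, at a mean of 8.54%, was weaker than that of 25 of these genes and stronger than their median of 10.8%, taken over the 69 with a candidate in every replicate. The 3.5 ± 1 candidates of exd (SD, n = 4) were close to the median of 3.25 over genes of 2 to 10 kb, and its 5.79 per 10 kb to their median of 5.48.

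**Figure D4:**
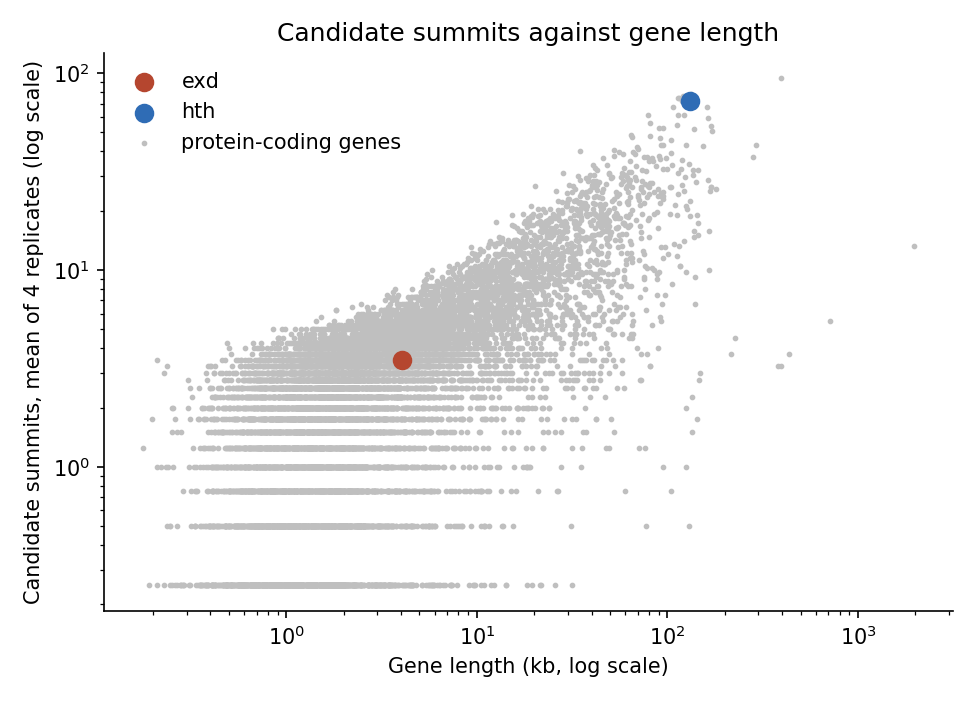
Mean number of candidate summits over the 4 replicates against gene length, both on log scales, for exd, hth and the other protein-coding genes with at least 1 candidate. exd, with 3.5, lies inside the cloud, and hth, with 72, lies near its upper edge among genes of like length.

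Few summits of hth, as of other long genes, recurred at the same place. A candidate was counted as recurring when each of the other 3 lists had a summit within 100 bp. This held for 25%, 100%, 25% and 0% of the exd candidates in replicates 1 to 4 (mean 37.5 ± 43.3) and for 7.41%, 6.90%, 6.58% and 7.89% of the hth candidates (mean 7.19 ± 0.578, SD, n = 4). Over all candidates the share was 12.9 ± 0.995%, and over those of genes of at least 100 kb it was 5.99 ± 0.859%. The exd share moved widely because it rests on 2 to 4 candidates, and in replicate 4, whose exd peak lay furthest upstream, no candidate met the distance in all the other lists.

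In the conservative list the exd summit lay 13 bp downstream of the first start site, in a peak at chrX:15992223-15992646. It ranked 1879 of 5203, or 36.1% from the top. A conservative summit was found at 40.0% of all protein-coding genes and at 47.9% of those of 2 to 10 kb, so that holding one did not set exd apart. hth had none, like 43 of the 87 genes of at least 100 kb, of which 50.6% had one, with a median of 1 and at most 8 summits per gene.

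The submitters deposited 7 series-level lists, each with a ranked and a thresholded form, and the place of hth depended on which was read. The exd summit was in all 7 thresholded lists, with a global IDR from 3.64e-05 to 0.00207. These lists derive from the same 4 samples and gave this summit the same pooled height, so they are not independent. How many other genes had a summit in all 7 was not counted. The hth summit at the internal start site was in 2 of 7, the lists of 6220 and 4347 peaks, with IDRs of 0.00148 and 0.00108, and reached an IDR of 0.771 in the list of 4009 peaks. In the ranked form of the conservative list it missed the threshold narrowly, with an IDR of 0.0110, and so did the intron summit at 103577 bp, with 0.0104. By pooled peak height the internal-start summit ranked 3688 of 69662, and 1803 of the 5203 conservative peaks (34.7%) were lower than it.

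The list of 6220 peaks was the only thresholded one with more than 2 hth summits. It held 5: the internal start site, the introns at 44127 and 103577 bp, and a pair 6157 and 6395 bp upstream of the outer start site (IDR 0.00964 and 0.00965), in the stretch where the antisense transcript asRNA:CR44018 is annotated or just beyond it. The peaks of this pair overlapped. The summit at 6395 bp was weak, with a pooled height of 27.7 against 94.6 at 6157 bp. It ranked 46106 of 79281 in the ranked form, and no replicate had a candidate within 100 bp of it. Of the genes of at least 100 kb, 56.3% had a summit in that list. A further exd summit, 215 bp downstream of the first start site and 17 bp upstream of the second, was in 2 of 7 lists, those of 6220 and 4640 peaks, with IDRs from 0.00123 to 0.773 over all 7.

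**Figure D5:**
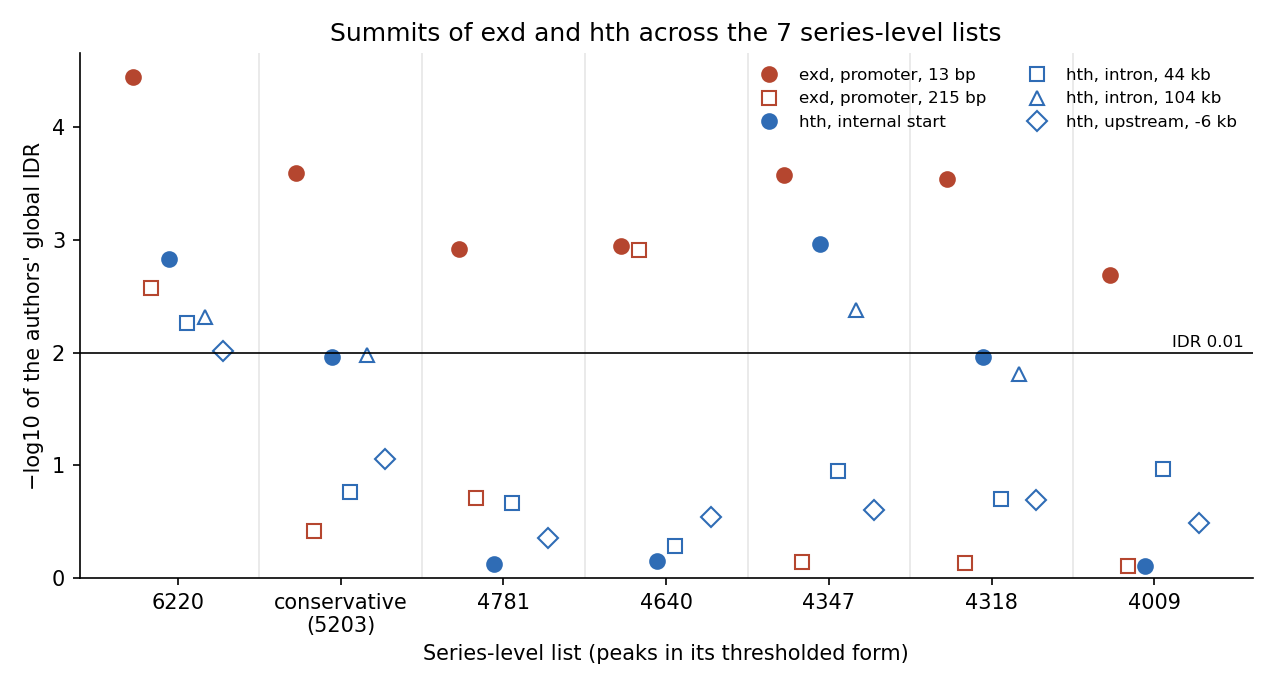
Minus log10 of the authors' global IDR for 2 summits of exd and 4 of hth in the ranked forms of the 7 series-level lists, ordered by the number of peaks in the thresholded form. The horizontal line is an IDR of 0.01, and summits above it are in the thresholded list. The exd summit at 13 bp is above the line in every list, and the internal-start summit of hth is above it in 2 and just under it in the conservative list.

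The exd peak lies in a promoter shared by genes on both strands. The start sites of eIF5, a translation initiation factor, and CG46312 lie on the other strand with 493 bp between them and that of exd, and both genes held the same summit through their 2 kb upstream, although it was nearest to exd. The peak therefore cannot be given to exd alone from these lists. Other neighbours within 10 kb were Cep164, Slc25A46a and ND-20, with no conservative summit and no thresholded one. A further neighbour, CG8939, had a thresholded summit in 2 own lists, and vap and CG12698 each held 1 conservative summit. That of vap was nearest to vap, whereas CG12698 was nearest to none, so both may hold the same summit. No other protein-coding gene lay within 10 kb of hth, and the microRNA gene mir-4944 lies inside it.

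Genes most like each member were sought by the mean absolute difference, over the 4 ranked lists, in the rank of the strongest candidate. For exd these were eIF5 and CG46312, with a difference of 0 because they share its summit, and CG8093, with a difference of 0.126 percentage points, among 10004 genes. For hth, among 281 genes of at least 50 kb, they were the cell adhesion gene ed (0.924), the teneurin gene Ten-a (1.19) and the kinase gene Gprk2 (1.30). Of these ed, like hth, had no conservative summit, and Ten-a and Gprk2 had 1 each.

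Among 7 listed TALE homeodomain genes, which need not be the whole class, 4 had a conservative summit, against 40.0% of all genes. These were exd, the neighbouring paralogs vis (13.8% from the top) and achi (27.8%), and the Iroquois gene mirr (72.9%). hth and the Iroquois genes ara and caup had none. achi and vis are near-identical copies, so that their reads may be split between them. The exd summit, at 36.1%, was thus lower than those of vis and achi and higher than that of mirr, and the median over all genes with a conservative summit was 32.4%.

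Of 13 matched genes of the proximodistal leg axis, 10 had a conservative summit, against 40.0% of all genes, the strongest at btd (23.4%), elB (30.9%) and tio (34.1%), which encode zinc finger proteins. All 3 ranked above exd, whose summit lay 13 bp from its start site. The btd summit lay 13832 bp from the nearest start site, and those of elB and tio 174 and 37 bp. Of 8 genes of antennal identity, a list that includes hth, 2 had one: Dll itself (46.2%) and the zinc finger gene salm (75.1%). Of the 8 Hox genes, whose proteins use Exd and Hth as partners, 4 had one. The strongest were at lab (42.6%), Ubx (52.8%) and Abd-B (68.2%), all lower than exd. The lab and Ubx summits lay 5971 and 31373 bp from the nearest start site, and that of Abd-B 277 bp. A thresholded summit in all 4 own lists, found at 21.9% of all genes, was present at 4 of the 13 leg axis genes. It was present at 1 of the 8 antennal genes, 0 of the 8 Hox genes, and exd and 2 others of the 7 listed TALE genes.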

How the data were processed

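Peak lists placed by the authors on dm6 were used as deposited, with 4 ranked and 4 thresholded lists of single replicates, 7 of each at series level and 22 in all. No source used here names the aligner or the caller, and the control was not analysed here. The signal column is the authors' deposited peak height, of unknown normalization, and was ranked only within a list. The deposited score is a scaled IDR made by the authors, and their thresholded lists stop at 830, an IDR of 0.01. The replicates' ranked lists held 2578 to 3716 candidates at 830 or above. Each was more than the peaks of the matching thresholded list (2523 to 3610), so some candidates past the cut are not in it. The −log10 columns deposited by the authors hold the q value and, in ranked lists, the global IDR. Another 14 columns of values per replicate carry no sample name and were not used.

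Genes came from Ensembl release 115 (BDGP6) on 7 chromosome arms, whose coordinates were compared with the RefSeq release 6 genome. The longest list of 6220 peaks, and each series-level list, is called by its number of nuclear peaks. Replicates were compared by mean ± SD, and exd with hth by an exact paired sign-flip test over the 4 replicates. A p-value here reflects only how these samples spread, which may be technical. Depth is unknown, so no counting interval is given. The members, 4 gene lists and 7 motifs were chosen with earlier results of these data known. Named genes were exd and hth, up to 3 others per list with the highest conservative summit, the 3 genes most like each member and neighbours within 10 kb; the listed genes with no summit, ara and caup, were named after their values were seen. Alternatives covered ranking, gene assignment, threshold, merging, overlap distance and each replicate left out. Scripts used Python 3.11.15, NumPy 2.4.6, pandas 2.3.3, SciPy 1.17.1 and matplotlib 3.10.9, and the assignment and recurrence rules were tested on simulated data.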

Additional observations from a re-analysis of the deposited data

Results flagged for a closer look

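Among 8 sets of 4 replicate values, 2 had a replicate far from the other three by Dixon's ratio, which for continuous values happens by chance in about 1 set in 20. Both are small counts with 3 equal values, for which the ratio is 1 whatever the size of the step, so that rate does not apply to them. The density of exd candidates was 3.31 per 10 kb in replicate 2 and 6.62 in each of the others, a step of 2 candidates against 4. The number of thresholded hth peaks was 2 in replicate 2 and 0 in each of the others. Replicate 2 also had the largest number of hth candidates, 87, and the longest thresholded list, with 3610 peaks. Replicate 1, with 3609 thresholded peaks, had 0 hth peaks, and the lists of replicates 3 and 4 held 2523 and 2884. The exd density comes from the ranked lists, of which that of replicate 2 was the shortest, with 39011 candidates against 39755 to 44390. The part of list length in either result was not tested.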

How the results depend on the processing

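The rank difference between exd and hth kept its sign under every alternative run, at −3.30 to −4.60 percentage points with a replicate left out. The exd rank was 58.1% within the thresholded lists, where hth had a peak in replicate 2 alone (69.0%, against 51.7% for exd there), so that no mean for hth and no mean difference could be had, and 6.01% with 1 summit per merged region. With promoter summits alone, an alternative chosen after seeing the data, the hth rank was 12.4%. The sign of the density difference was not stable: it was 2.07 per 10 kb in the upper 50% by signal and 1.62 in the thresholded lists, but −1.07 per 10 kb over gene bodies alone, −0.194 with 1 summit per merged region, −1.18 with summits nearest to the gene's own TSS (chosen after seeing the data) and −0.00512 to 1.45 with a replicate left out. The exd count was 2 in the series-level lists of 6220 and 4640 peaks, and the hth count was 5 in the list of 6220 and 2 in that of 4347. In the upper 50% of each thresholded list by signal, 0 replicates had an exd peak and 0 an hth peak, and leaving a replicate out left 0 to 1 replicates with an hth peak, 0 without replicate 2. The recurring share of hth candidates was 2.18% within 50 bp, 20.1% within 250 bp, 33.2% by an overlap of 1 bp, 17.6% by a reciprocal overlap of 50%, 4.61% in the upper 50% by signal and 10.8% to 14.3% with a replicate left out, which leaves fewer lists to meet. That of exd, 37.5% on 2 to 4 candidates per replicate, was 0% within 50 bp, 62.5% within 250 bp and by an overlap of 1 bp, 37.5% by a reciprocal overlap of 50%, 33.3% in the upper 50% by signal and 41.7% to 66.7% with a replicate left out, the highest without replicate 4. In the upper 50% of the conservative list, and among its peaks seen in at least 2 own lists, 1 antennal and 1 Hox gene had a summit. The cause of these changes was otherwise not tested. In all, 83 values moved by less than the spread between replicates, stayed within 1.5 times (counts) or kept their sign and their side of the threshold (tests). No paired analysis of sample groups was possible because the 4 samples form 1 group, and the paired test of exd against hth within each replicate is the main one. Unknown depth limits these lists: a gene with no peak past the threshold may still be bound below it.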
